A study of Mus musculus with 16 samples.

Results

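The RNAs described here encode proteins that bring new polypeptides into the endoplasmic reticulum (ER) and the coats that carry them onward. They are the rows of the table whose gene symbols begin with Sec and a digit, Srp and a digit, Srpr, Spcs1 to Spcs3 or Tmed and a digit, or are the COPI subunit symbols Copa, Copb, Cope, Copg and Copz with or without a number, Ssr1 to Ssr4, or Arf1 to Arf6. In all, 64 of 12900 RNAs matched, and all 64 are protein-coding in the GENCODE vM21 annotation of GRCm38. Of these, 61 have a known role in translocation or coat traffic, while 3 matched by spelling only: Sec1, of the fucosyltransferase family, and Sec14l1 and Sec14l2, of the lipid-transfer Sec14 family. Srp54a, Srp54c, Tmed6 and Tmed11 were not among the rows, and δ-COP (Arcn1) falls outside the naming.

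RNA-Seq was done on NIH/3T3 cells, an established mouse fibroblast line, that carried one of 2 doxycycline-inducible lentiviral constructs. Both constructs express human β-globin, with its own 3′UTR in the control line (HBB) and with that of Pkp4 in the competing line (Pkp4 cUTR), and both lines received 1 µg/ml doxycycline for 3 days. Cells were plated for 2 h on filters with 3.0 µm pores, exposed to LPA from below for 1 h and fixed for 10 min in 0.3% paraformaldehyde, and protrusions (Ps) and cell bodies (CB) were taken from separate filters. Each of the 4 groups, HBB Ps, HBB CB, Pkp4 cUTR Ps and Pkp4 cUTR CB, held 4 samples. Each construct is represented by a single stable line, so an effect of the construct and a difference between lines cannot be told apart.

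Proteins that are secreted or inserted into membranes carry a signal sequence that the signal recognition particle (SRP) binds as it leaves the ribosome. SRP docks at its receptor on the ER, the chain passes through the Sec61 channel, and signal peptidase removes the signal. Cargo then leaves the ER in COPII vesicles, built on Sec23, Sec24, Sec13 and Sec31 at exit sites marked by Sec16, and is returned from the Golgi in COPI vesicles, whose coat is recruited by ARF GTPases. The p24 (Tmed) proteins cycle between both compartments as cargo receptors. Fibroblasts send much collagen and fibronectin along this route.

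Between 18660287 and 31260831 reads per sample lay behind the deposited values. A level is given as log2 CPM, the log2 of the reads of an RNA plus 0.5 per 1000000 reads of the scaled library, and 3 reads correspond to 0.089 to 0.176 CPM. It is a share of a fraction's RNA, so a lower level in protrusions does not tell less RNA per protrusion from a larger share of other RNAs. Of the fibroblast markers, 7 of 8 were listed and Thy1 was not. The members' mean log2 CPM ran from −0.91 to 9.24 with a median of 6.32, against a median of 3.92 over all RNAs, and 63 of 64 members had at least 3 reads in all 16 samples. The replicates were labelled as separate samples, and the paper describes them as independent. Where they were not separate cultures the p-values measure technical spread only.

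The first question was which of these RNAs are distributed toward protrusions. At an adjusted p under 0.05 (limma-voom, Benjamini-Hochberg over all RNAs), 22 of 64 members (34.4%) were higher in HBB protrusions than in cell bodies and 18 (28.1%) were lower, where 28.3% and 28.9% of all RNAs were. In the Pkp4 cUTR line, 18 members were higher and 21 were lower, beside 28.2% and 28.5% of all RNAs. In both lines together 17 were higher and 16 lower, beside 24.1% and 25.3%. The shares of the whole group thus lay near the background, and the median log2(FC) was 0.01 in HBB and −0.02 in Pkp4 cUTR cells, with 0.01 in each line over all RNAs. In HBB cells the translocon, the TRAP complex, signal peptidase and the p24 family each held RNAs that passed in either direction. The same shares of all RNAs in each line are the background of the counts by role below.

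Enrichment above 2-fold at an unadjusted p under 0.05, the threshold of the study, was met by Sec61g alone in HBB cells (background 4.54%) and by Sec61g and Tmed5 in Pkp4 cUTR cells (background 5.07%). Sec31b was the single member whose level in protrusions was under the inverse of 2-fold, in both lines, beside 4.00% and 2.92% of all RNAs. Sec61g lay so near the threshold that leaving out a sample could bring it under. Examples are protrusion sample 3 in HBB cells and cell-body sample 2 or 3 in Pkp4 cUTR cells. No member passed the threshold with libraries scaled to their total reads. The members' log2(FC) ran from −1.56 to 1.06 in HBB cells and from −1.53 to 1.12 in Pkp4 cUTR cells. For scale, the protrusion RNA Rab13 had a log2(FC) of 2.36 ± 0.13 (SE) in HBB cells. The nuclear-retained RNAs Malat1 and Neat1 had −1.85 ± 0.20 and −1.48 ± 0.16, and 2 of the 3 such RNAs listed were lower in protrusions. Their part in the members' values was not tested.

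**Figure D1:**
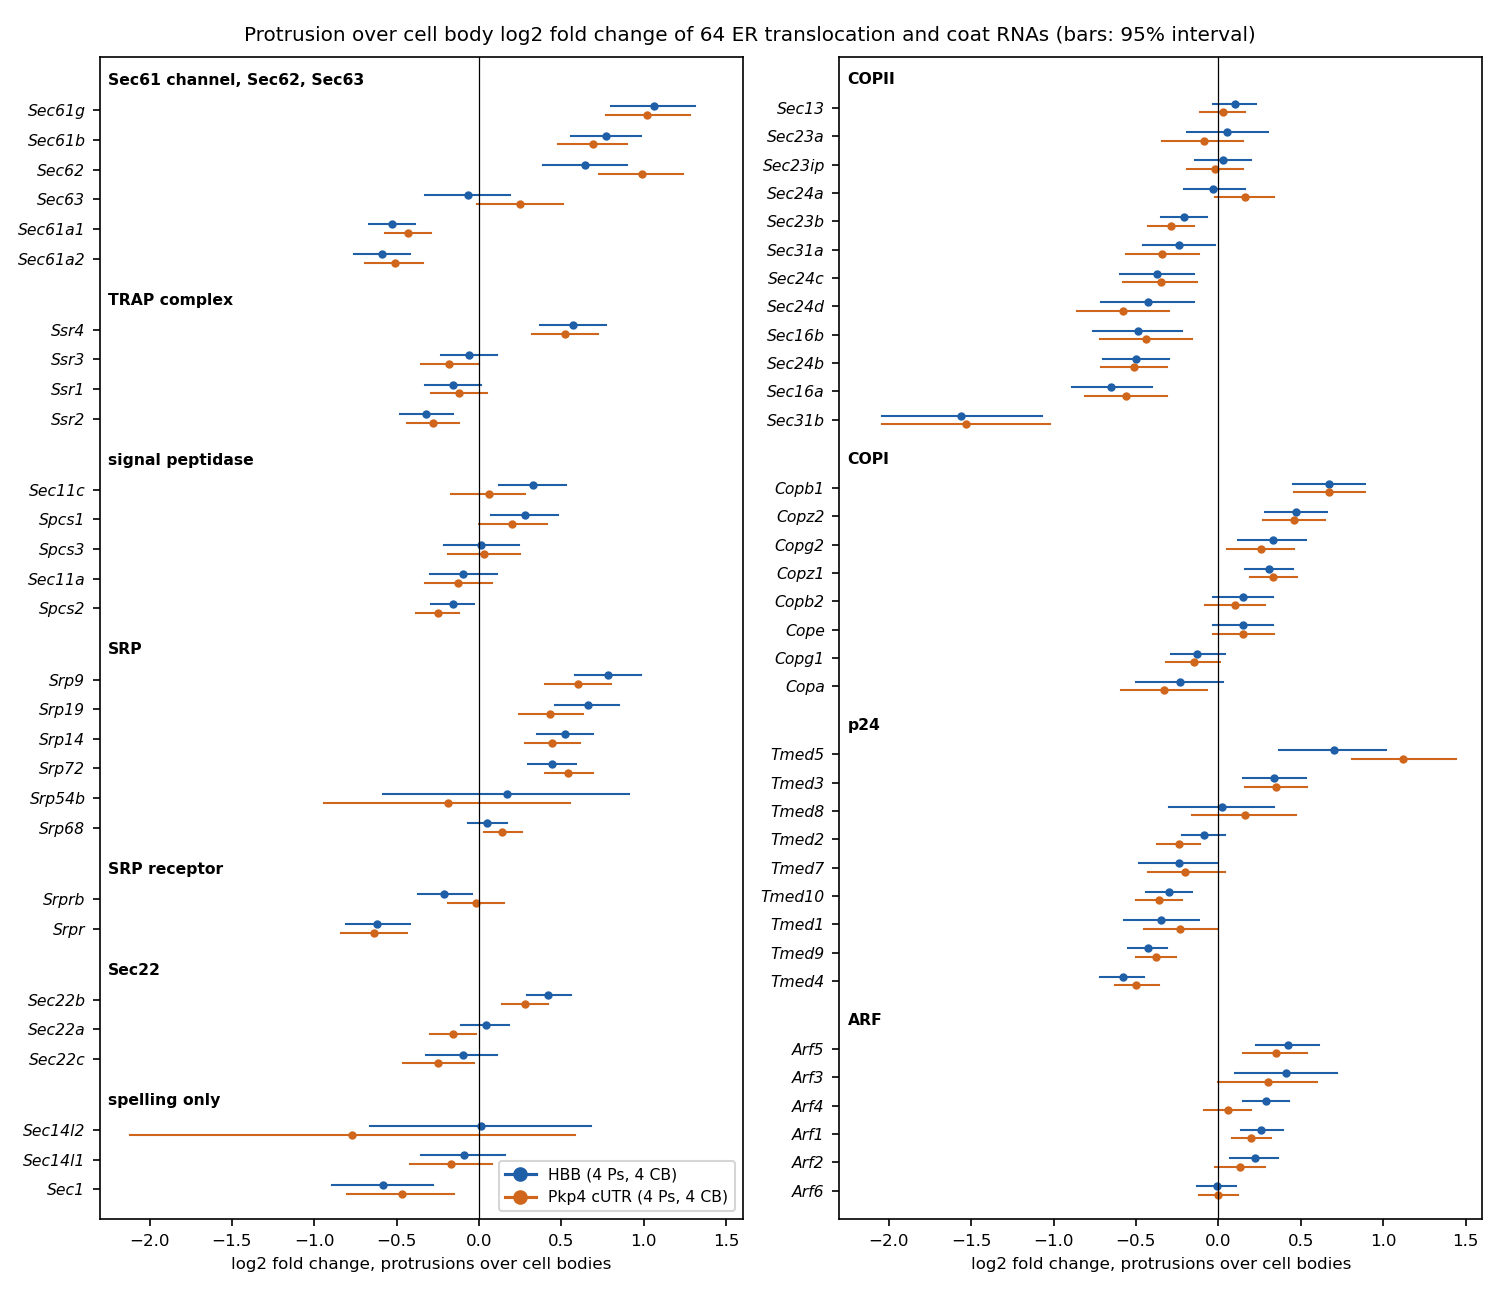
Log2 fold change of protrusions over cell bodies (x axis) for each of the 64 members (y axis, grouped by role), in the HBB line (blue) and Pkp4 cUTR cells (orange). Points are limma-voom estimates from 4 samples per group and bars are 95% intervals. Sec61g, Sec61b, Srp9 and Copb1 lie to the right of 0 in both lines, and Sec31b, Sec16a, Srpr and both Sec61 α subunits lie to the left.

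The Sec61 channel was split by subunit. It consists of a large pore-forming α subunit, encoded by Sec61a1 or its paralog Sec61a2, and the small tail-anchored β and γ subunits. Sec61g, the γ subunit (chr11:16500530-16508484, minus strand, GRCm38), had 7.24, 7.31, 7.20 and 7.44 log2 CPM in the HBB cell bodies and 8.40, 8.30, 8.56 and 8.15 in the HBB protrusions. In the Pkp4 cUTR line it had 7.55, 7.28, 7.15 and 7.65 in cell bodies and 8.37, 8.50, 8.71 and 8.14 in protrusions. Every protrusion sample stood above every cell-body sample in both lines, and Sec61g rose by 2.08-fold in HBB protrusions (log2(FC) 1.06 ± 0.12, adjusted p = 1.03e-06, limma) and 2.03-fold in Pkp4 cUTR protrusions.

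Sec61b, the β subunit (chr4:47474658-47483242, plus strand), had 6.73, 6.72, 6.73 and 6.81 log2 CPM in HBB cell bodies against 7.56, 7.42, 7.70 and 7.38 in protrusions. The Pkp4 cUTR cell bodies had 7.01, 6.82, 6.70 and 7.00 and the protrusions 7.53, 7.62, 7.86 and 7.30. Here too the fractions did not overlap, with a log2(FC) of 0.77 ± 0.10 in HBB (limma adjusted p = 5.13e-06) and 0.69 ± 0.10 in Pkp4 cUTR cells.

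The α subunits went the other way. Sec61a1 (chr6:88503579-88518905, minus strand), the better read of the α paralogs, had 8.92, 8.95, 8.89 and 8.90 log2 CPM in HBB cell bodies and 8.46, 8.40, 8.27 and 8.40 in protrusions. It fell in protrusions by 0.53 ± 0.07 on the log2 scale in HBB and by 0.43 ± 0.07 in Pkp4 cUTR cells. Sec61a2 had 5.10, 4.89, 5.03 and 4.92 in HBB cell bodies, 4.34, 4.48, 4.31 and 4.46 in HBB protrusions, 4.82, 4.87, 4.92 and 4.84 in Pkp4 cUTR cell bodies, and 4.18, 4.48, 4.25 and 4.53 in Pkp4 cUTR protrusions. Both α RNAs were lower in each protrusion sample than in each cell-body sample of their line.

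The contrast within the channel can be read inside each sample, where the scaling of libraries cancels. The log2 ratio of Sec61g to Sec61a1 CPM was −1.68, −1.64, −1.69 and −1.46 in the HBB cell bodies and −0.06, −0.10, 0.29 and −0.25 in the HBB protrusions. In Pkp4 cUTR cells it was −1.40, −1.76, −1.85 and −1.12 in cell bodies and −0.17, −0.06, 0.26 and −0.33 in protrusions. These RNAs differ in length, so the ratio compares fractions and not the abundance of the subunits.

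Sec62 and Sec63 are membrane proteins that assist the channel, Sec63 by recruiting the chaperone BiP. Sec62 had 3.56, 3.24, 3.26 and 3.14 log2 CPM in HBB cell bodies and 3.87, 4.25, 3.73 and 3.95 in protrusions, and in Pkp4 cUTR cells 3.42, 3.13, 3.09 and 3.25 in cell bodies and 4.08, 4.37, 4.04 and 4.36 in protrusions. It was higher in every protrusion sample, with a log2(FC) of 0.64 ± 0.12 in HBB and 0.99 ± 0.12 in Pkp4 cUTR cells (limma adjusted p = 0.000223 and 3.19e-06). Sec63 did not pass the test in either line, with −0.07 ± 0.12 and 0.25 ± 0.12.

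**Figure D2:**
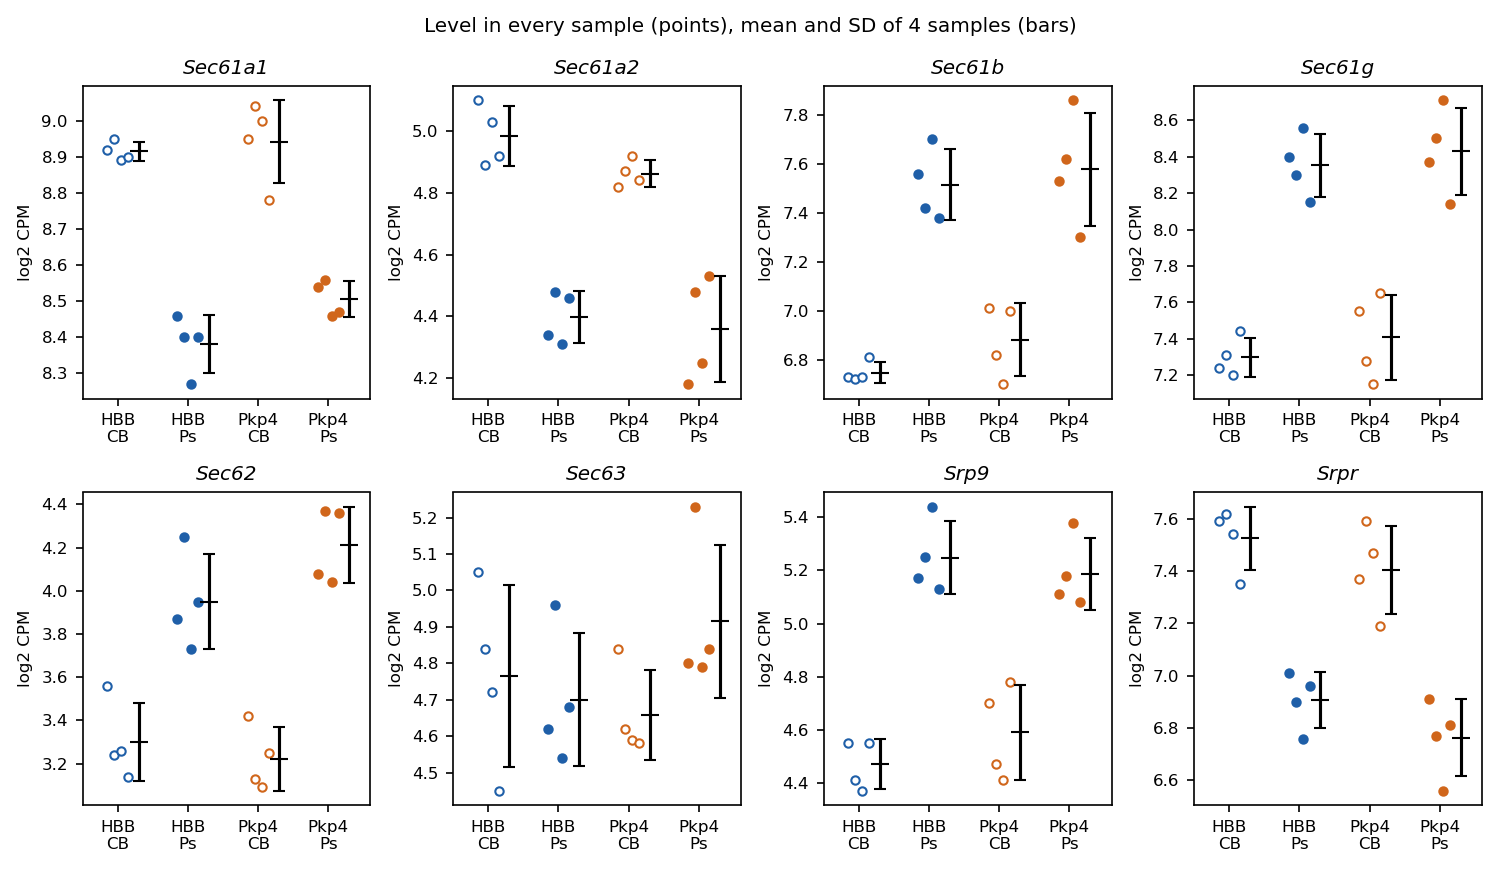
Log2 CPM (y axis) of the Sec61 subunits, Sec62, Sec63, the SRP subunit Srp9 and the SRP receptor α subunit Srpr in each sample of the 4 groups (x axis, open points for cell bodies and filled points for protrusions). The bars give the mean and SD of 4 samples. Sec61b, Sec61g, Sec62 and Srp9 are higher and Sec61a1, Sec61a2 and Srpr lower in protrusions with no overlap in either line, while the groups of Sec63 overlap.

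The translocon-associated protein (TRAP) complex, which sits beside the channel, gave 1 higher, 1 lower and 2 RNAs that did not pass in each line. Its δ subunit Ssr4 had 7.67, 7.74, 7.75 and 7.93 log2 CPM in HBB cell bodies and 8.38, 8.19, 8.58 and 8.21 in protrusions. The Pkp4 cUTR samples had 7.67, 7.63, 7.61 and 7.83 in cell bodies and 8.27, 8.15, 8.39 and 8.01 in protrusions. The fractions did not overlap and the log2(FC) was 0.57 ± 0.10 in HBB and 0.52 ± 0.10 in Pkp4 cUTR cells. The β subunit Ssr2 fell by 0.32 ± 0.08 and 0.28 ± 0.08 on the log2 scale.

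The signal peptidase RNAs had values close to 0. Spcs1 (log2(FC) 0.28 ± 0.10) and the catalytic subunit Sec11c (0.33 ± 0.10) were higher in HBB protrusions, Spcs2 was lower (−0.16 ± 0.06), and Sec11a, the other catalytic subunit, and Spcs3 did not pass the test. In Pkp4 cUTR cells only Spcs2 passed, with −0.25 ± 0.06.

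None of the SRP RNAs was lower in protrusions and none of its receptor's RNAs was higher. Of 6 SRP protein RNAs listed, 4 were higher in HBB protrusions and 5 in Pkp4 cUTR protrusions, beside 28.3% and 28.2% of all RNAs. None was lower, and the median log2(FC) of the 6 was 0.48 and 0.44. Srp9, Srp14 and Srp19 have coding lengths under 600 bases. Of all protein-coding RNAs that short, 64.5% were higher in HBB and 60% in Pkp4 cUTR cells. Srp9, which with Srp14 binds the Alu domain of the SRP RNA and pauses elongation, had 4.55, 4.41, 4.37 and 4.55 log2 CPM in HBB cell bodies and 5.17, 5.25, 5.44 and 5.13 in protrusions. The Pkp4 cUTR cell bodies had 4.70, 4.47, 4.41 and 4.78 and the protrusions 5.11, 5.18, 5.38 and 5.08. It rose in protrusions with a log2(FC) of 0.78 ± 0.10 and 0.60 ± 0.10 (limma adjusted p = 2.2e-06 in HBB).

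Its partner Srp14 rose by 0.52 ± 0.08 and 0.44 ± 0.08 on the log2 scale. Srp19, which helps to assemble the particle, had 3.90, 3.63, 3.75 and 3.62 log2 CPM in HBB cell bodies and 4.47, 4.41, 4.43 and 4.24 in protrusions, and 4.03, 3.83, 3.85 and 4.16 against 4.48, 4.41, 4.47 and 4.23 in Pkp4 cUTR cells. Its log2(FC) was 0.66 ± 0.09 and 0.43 ± 0.09. In the Pkp4 cUTR line the fractions of Srp19 came close to each other without overlap. Srp72 rose by 0.44 ± 0.07 and 0.54 ± 0.07, while its partner Srp68 had 0.05 ± 0.06 and 0.14 ± 0.06, of which the second passed the test. Srp54b, the copy of the signal-binding GTPase subunit that was listed, was barely read, at a mean log2 CPM of −0.26, and did not pass in either line (log2(FC) 0.17 and −0.19).

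The receptor's α subunit Srpr (chr9:35200175-35247973, plus strand), the GTPase that SRP docks to, had 7.59, 7.62, 7.54 and 7.35 log2 CPM in HBB cell bodies and 7.01, 6.90, 6.76 and 6.96 in protrusions. The Pkp4 cUTR line had 7.37, 7.59, 7.47 and 7.19 in cell bodies and 6.91, 6.77, 6.56 and 6.81 in protrusions. The protrusion samples were all lower, by a log2(FC) of −0.62 ± 0.09 in HBB (limma adjusted p = 2.13e-05) and −0.64 ± 0.09 in Pkp4 cUTR cells. The membrane-anchoring β subunit Srprb fell by 0.21 ± 0.08 in HBB cells and had −0.02 ± 0.08 in Pkp4 cUTR cells. With quantile normalization, or without both cell-body samples numbered 4 (an alternative chosen after the data were seen), only 1 of the 2 receptor RNAs, Srpr, was lower in HBB cells.

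None of 12 RNAs of the COPII coat and its exit-site scaffold was higher in protrusions. This held at an adjusted p and at an unadjusted p under 0.05 with limma. At the adjusted p, 7 were lower in HBB and 8 in Pkp4 cUTR cells, beside 28.9% and 28.5% of all RNAs. The median log2(FC) of the 12 was −0.31 and −0.34. The lower RNAs in both lines were Sec31b, Sec16a, Sec16b, Sec24b, Sec24c, Sec24d and Sec23b, and Sec31a joined them in Pkp4 cUTR cells. Sec13, Sec23a, Sec23ip and Sec24a did not pass in either line.

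Sec31b (chr19:44516957-44545864, minus strand), the less read paralog of the outer-cage protein, had 3.22, 3.16, 3.12 and 2.86 log2 CPM in HBB cell bodies and 1.59, 1.72, 1.06 and 1.76 in protrusions. In Pkp4 cUTR cells it had 2.83, 3.26, 3.26 and 2.29 in cell bodies and 1.51, 1.38, 0.80 and 1.88 in protrusions. Its log2(FC) of −1.56 ± 0.23 in HBB and −1.53 ± 0.24 in Pkp4 cUTR cells was the lowest of the 64, on between 34 and 292 reads per sample. The main outer-cage RNA Sec31a had −0.24 ± 0.11 and −0.34 ± 0.10.

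Sec16a, the scaffold of the exit site, had 6.50, 6.68, 6.59 and 6.29 log2 CPM in HBB cell bodies and 5.86, 5.95, 5.76 and 5.90 in protrusions. The Pkp4 cUTR line had 6.36, 6.63, 6.72 and 6.11 in cell bodies and 5.99, 5.90, 5.67 and 6.02 in protrusions. The last cell-body value lay just above the highest protrusion value, and Sec16a fell by 0.65 ± 0.12 and 0.56 ± 0.12 on the log2 scale.

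The Sec24 proteins bind cargo, and their 4 paralogs did not move alike. Sec24b had 4.66, 4.70, 4.61 and 4.32 log2 CPM in HBB cell bodies and 4.12, 4.11, 4.11 and 3.97 in protrusions, with 4.68, 4.72, 4.62 and 4.43 against 4.29, 4.00, 4.06 and 4.06 in Pkp4 cUTR cells. Sec24d had 7.05, 7.21, 7.11 and 6.82 against 6.55, 6.68, 6.58 and 6.64 in HBB, and 6.79, 7.21, 7.18 and 6.70 against 6.59, 6.28, 6.0 and 6.68 in Pkp4 cUTR cells. Both were lower in protrusions without overlap, by log2(FC) −0.50 ± 0.09 and −0.43 ± 0.13 in HBB cells. Sec24c fell by 0.37 ± 0.11, and Sec24a had −0.03 ± 0.09 in HBB and 0.16 ± 0.09 in Pkp4 cUTR cells.

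The COPI coat gave 4 higher RNAs and none lower of 8 in HBB cells, and 4 higher and 1 lower in Pkp4 cUTR cells, with a median log2(FC) of 0.23 and 0.21. Without both cell-body samples numbered 4 it had 4 higher and 2 lower (Copa and Copg1) in HBB cells and 3 higher and 2 lower in Pkp4 cUTR cells. With all samples, 28.3% of all RNAs were higher and 28.9% lower in HBB cells, and 28.2% and 28.5% in Pkp4 cUTR cells. The COPI RNAs higher in both lines were Copb1 (β), Copz1 and Copz2 (ζ) and Copg2 (γ2). Copb1 (chr7:114215559-114254711, minus strand) had 4.76, 4.74, 4.32 and 4.33 log2 CPM in HBB cell bodies and 5.10, 5.42, 5.16 and 5.17 in protrusions. The Pkp4 cUTR cell bodies had 4.78, 4.63, 4.51 and 4.67 and the protrusions 5.35, 5.31, 5.36 and 5.26. No sample overlapped, and its log2(FC) was 0.67 ± 0.10 in each line (limma adjusted p = 2.64e-05 in HBB).

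Copz2, Copg2 and Copz1 had log2(FC) 0.47 ± 0.09, 0.33 ± 0.10 and 0.31 ± 0.07 in HBB cells. Copa (α), the largest subunit, had −0.23 ± 0.13 and in Pkp4 cUTR cells fell by 0.33 ± 0.13, while Copb2 (β′), Cope (ε) and Copg1 (γ1) passed in neither line. Per kilobase of the annotated principal transcript, Copb1 was among the least read COPI subunits in HBB cell bodies, at 7.02 ± 1.20 CPM per kb (SD, n = 4). Copg2 was at 8.77 ± 1.17, and its difference from Copb1 in the same samples was not tested. Copb2 followed with 26.7 ± 3.40, Copg1 with 65.9 ± 4.03 and Copa with 74.1 ± 6.38. Cope, Copz2 and Copz1 were at 134, 135 and 142, and their differences were not tested either. In HBB protrusions Copb1 reached 11.1 ± 1.16 and Copa 62.8 ± 1.74 CPM per kb.

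ARF GTPases recruit COPI and other coats when loaded with GTP. In HBB cells 5 of 6 ARF RNAs were higher in protrusions, beside 28.3% of all RNAs, and none was lower. The log2(FC) was 0.42 ± 0.09 for Arf5, 0.41 ± 0.15 for Arf3, 0.29 ± 0.07 for Arf4, 0.26 ± 0.06 for Arf1 and 0.22 ± 0.07 for Arf2. In Pkp4 cUTR cells Arf5 (0.35 ± 0.09) and Arf1 (0.20 ± 0.06) passed, where 28.2% of all RNAs were higher. The median of the 6 was 0.28 in HBB and 0.16 in Pkp4 cUTR cells. Arf1 and Arf2 are short, with 543 coding bases each. Of all protein-coding RNAs under 600 coding bases, 64.5% were higher in HBB and 60% in Pkp4 cUTR cells, with medians of 0.45 and 0.39. Arf6, the member that acts at the plasma membrane and in actin-rich edges, had −0.01 ± 0.06 and 0.00 ± 0.06, with a 95% interval of −0.13 to 0.11 in HBB cells. Arf1 was the best read of all 64 members in log2 CPM.

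The direction of these lists depends in part on how libraries are scaled. With libraries scaled to their total reads, the median log2(FC) of all 12900 RNAs moved to −0.23 in HBB and −0.25 in Pkp4 cUTR cells. The members' median moved with it, to −0.23 and −0.28. Their split became 12 higher and 32 lower in HBB and 10 higher and 34 lower in Pkp4 cUTR cells. The shares of all RNAs called under that scaling were not counted, so no count under it is a result about the members. Under that scaling COPI had 2 higher and 2 lower RNAs in each line, and the ARF RNAs had 1 higher and 1 lower in HBB and none higher and 2 lower in Pkp4 cUTR cells. SRP then had 3 higher RNAs in each line and 1 lower in HBB cells. Relative to the shifted median of all RNAs, the median of COPI was 0.22 and 0.19, of ARF RNAs 0.27 and 0.15, of SRP 0.47 and 0.43 and of COPII −0.31 and −0.35. These were the same with the authors' scaling. Rescaling a library shifts all its RNAs alike, so these relative values are no check of the scaling. No member called in a line passed the test in the opposite direction. The sign of log2(FC) did change for called members, namely Arf2 in HBB and Arf1, Copg2 and Srp68 in Pkp4 cUTR cells. Sec61g, Sec61b, Sec62, Srp9, Srp14, Copb1, Copz2, Ssr4 and Tmed5 still passed as higher in both lines with this scaling. Such values are still shares of a library and not amounts of RNA.

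The p24 proteins gave 2 higher, 4 lower and 3 RNAs that did not pass of 9 in each line, and the median log2(FC) was −0.24 and −0.23. Over all RNAs, 28.3% were higher and 28.9% lower in HBB cells, and 28.2% and 28.5% in Pkp4 cUTR cells. Tmed4 had 6.19, 6.14, 6.24 and 6.21 log2 CPM in HBB cell bodies and 5.74, 5.62, 5.45 and 5.64 in protrusions, with 6.03, 6.06, 6.12 and 6.18 against 5.58, 5.60, 5.63 and 5.59 in Pkp4 cUTR cells. It was lower in every protrusion sample, by log2(FC) −0.58 ± 0.06 and −0.50 ± 0.07, with the smallest adjusted p of the 64 members in HBB cells (7.41e-07, limma). Tmed9 fell by 0.43 ± 0.06 and Tmed10 by 0.30 ± 0.06 in HBB cells.

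Tmed5 went the opposite way, with 2.14, 1.87, 2.22 and 2.11 log2 CPM in HBB cell bodies and 2.65, 2.88, 2.76 and 2.86 in protrusions. The competing line had 1.99, 1.78, 1.88 and 2.50 in cell bodies and 2.77, 3.24, 3.23 and 3.38 in protrusions. The fractions did not overlap and the log2(FC) was 0.70 ± 0.15 in HBB (limma adjusted p = 0.000837) and 1.12 ± 0.15 in Pkp4 cUTR cells. Tmed3 was also higher, with 0.34 ± 0.09 and 0.35 ± 0.09. The 9 p24 RNAs on either side have coding lengths between 603 and 978 bases.

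Among the Sec22 SNAREs, Sec22b, the fusion protein of ER and Golgi traffic, rose by 0.42 ± 0.06 and 0.28 ± 0.06 on the log2 scale. Sec1, which matched by spelling, had 2.18, 2.06, 2.41 and 2.08 log2 CPM in HBB cell bodies and 1.52, 1.59, 1.69 and 1.65 in protrusions, with a log2(FC) of −0.58 ± 0.15. In Pkp4 cUTR cells it had 1.76, 2.06, 1.88 and 2.08 against 1.03, 1.68, 1.79 and 1.43, where the fractions overlapped. Its log2(FC) there was −0.47 ± 0.15, and without the first protrusion replicate it was −0.31 with a limma adjusted p of 0.0892.

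The cell-body sample numbered 4 of each line stood nearer to the protrusions in several of these RNAs. Of the 17 members higher in both lines it was the highest cell-body sample for 9 in each line, and of the 16 lower in both it was the lowest for 8 in HBB and 9 in Pkp4 cUTR. Without both of these samples 22 members were higher and 19 lower in HBB and 17 higher and 22 lower in Pkp4 cUTR cells.

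Coding length was a feature the choice of members did not use, and it moved with the values. Over the 64 members, the Spearman correlation of coding length with the HBB log2(FC) was −0.52, against −0.35 over 11358 protein-coding RNAs, and with the Pkp4 cUTR log2(FC) it was −0.50 against −0.29. These are correlations across RNAs that share libraries, and RNAs are not independent replicates. Of 19 members with coding lengths under 600 bases, 14 were higher and 1 was lower in HBB protrusions, with a median of 0.31. Of all 1519 such RNAs, 64.5% were higher and the median was 0.45. In Pkp4 cUTR cells 9 of the 19 (47.4%) were higher with a median of 0.20, beside 60% and 0.39 over all such RNAs. Of 22 members with 1500 bases or more, 3 (13.6%) were higher and 8 (36.4%) lower in HBB cells, where 16.7% and 42.4% of 5125 such RNAs were, with a median of −0.11 beside −0.20.

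The sign of the correlation was the same over the members and over the whole table. Sec61g (204 bases), Srp9 (258), Sec61b (288), Srp14 (330) and Srp19 (432) were short and higher, and Sec16a (7131) was long and lower. Copb1 (2859), Srp72 (2013) and Sec62 (1194) were higher in spite of longer coding sequences, and Ssr2 (549) was lower in spite of a short one. Whether length, or anything that goes with it in fixation, RNA isolation or library making, has a part in these values was not tested.

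**Figure D3:**
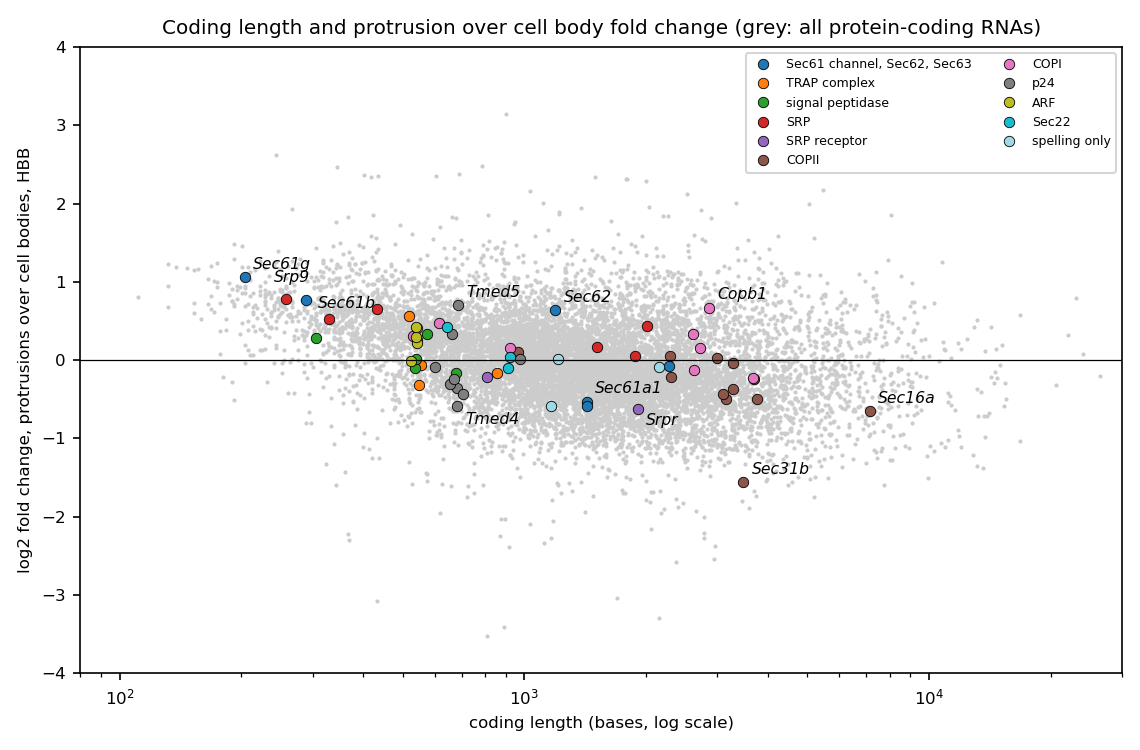
Coding length of the annotated principal transcript (x axis, bases, log scale) and HBB log2 fold change of protrusions over cell bodies (y axis) of the 64 members, coloured by role, over all 11358 protein-coding RNAs in grey. Short members such as Sec61g and Sec61b lie above 0, Sec31b and Sec16a lie below it, and Copb1 lies above it in spite of 2859 coding bases.

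Motifs in the genes' promoters were looked up because genes of this pathway are known targets of the unfolded protein response, whose factor XBP1 binds the element TGACGTGG. RefSeq windows on GRCm38.p6 were found for 55 of 64 members, and the 250 bases before a RefSeq transcription start held this element on either strand in 4 of them (7.27%), against 85 of 9065 RNAs of the table with a window (0.938%) and 0.563% of all promoters. The 4 windows are shown 5′ to 3′ on the gene's strand with the element in capitals, written as its reverse complement for Copb1, at chr11:59228229-59228256, chr7:114254691-114254718, chr1:157506742-157506769 and chr3:123267460-123267487.
Arf1: cggcaggcgcTGACGTGGctgccgtcag
Copb1: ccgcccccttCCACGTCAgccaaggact
Sec16b: tctgtgtggcTGACGTGGcacggcagtt
Sec24d: cccgggcgccTGACGTGGcactagcaac
These 4 RNAs were not on one side, since Arf1 and Copb1 were higher and Sec16b and Sec24d lower in protrusions of both lines. In GENCODE vM21, whose outermost start of these genes lies farther upstream, all 4 elements fall inside the gene span, so whether they lie before or after the start used in these cells is not known. A match of letters is no evidence of binding.

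The study asked whether a competing 3′UTR changes protrusion enrichment, measured as log2(Diff FC), the log2(FC) of Pkp4 cUTR cells minus that of HBB cells. No member passed at an adjusted p under 0.05, nor did any of the 12900 RNAs (0.00%), and 1 member and 300 RNAs had an unadjusted p under 0.05. At the study's unadjusted p under 0.1, 7 members (10.9%) passed, 3 with higher and 4 with lower enrichment, beside 5.80% of all RNAs. The study joined its p cutoff to a cutoff on log2(Diff FC) and applied both only to RNAs enriched in HBB protrusions. None of the 7 members met its 2-fold threshold in HBB cells, so the count is not the study's measure of mislocalized RNAs. The half-width of a member's 95% interval was 0.28 at the median. The lines ordered the members alike, with a Spearman correlation of 0.93 between their log2(FC) over 64 members and 0.94 over the protein-coding RNAs. The lines share no samples, but samples with the same number in both varied together, so the lines are not independent repeats.

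The smallest p belonged to Arf4, a GTPase of the Golgi and recycling endosomes. It had 7.36, 7.54, 7.32 and 7.54 log2 CPM in HBB cell bodies and 7.72, 7.78, 7.73 and 7.69 in protrusions, but 7.59, 7.70, 7.56 and 7.65 against 7.76, 7.65, 7.55 and 7.76 in Pkp4 cUTR cells. The fractions were apart in HBB and overlapped in Pkp4 cUTR cells, and log2(Diff FC) was −0.23 (95% interval −0.43 to −0.03), with an unadjusted p of 0.0278 and an adjusted p of 1 from limma. Sec22a, a relative of the SNARE Sec22b, had 4.54, 4.68, 4.54 and 4.59 against 4.66, 4.55, 4.63 and 4.65 in HBB, and 4.77, 4.71, 4.71 and 4.90 against 4.60, 4.55, 4.62 and 4.67 in Pkp4 cUTR cells. Its log2(Diff FC) was −0.20, with an unadjusted limma p of 0.0535, and it was −0.15 with a p of 0.116 without Pkp4 cUTR cell-body sample 4.

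Sec62 and Tmed5, whose samples are given above, had a log2(Diff FC) of 0.34 (95% interval −0.02 to 0.71) and 0.43 (−0.02 to 0.88), both with an unadjusted limma p of about 0.063. Sec11c (−0.27), Sec63 (0.32) and Tmed2 (−0.16) completed the 7. All 7 had an adjusted p of 1, and the count that passed the unadjusted threshold was 3 to 9 when a sample was left out. It was 4 without HBB cell-body sample 1, HBB protrusion sample 3, Pkp4 cUTR cell-body sample 2 or Pkp4 cUTR cell-body sample 4, and 3 without Pkp4 cUTR protrusion sample 2.

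**Figure D4:**
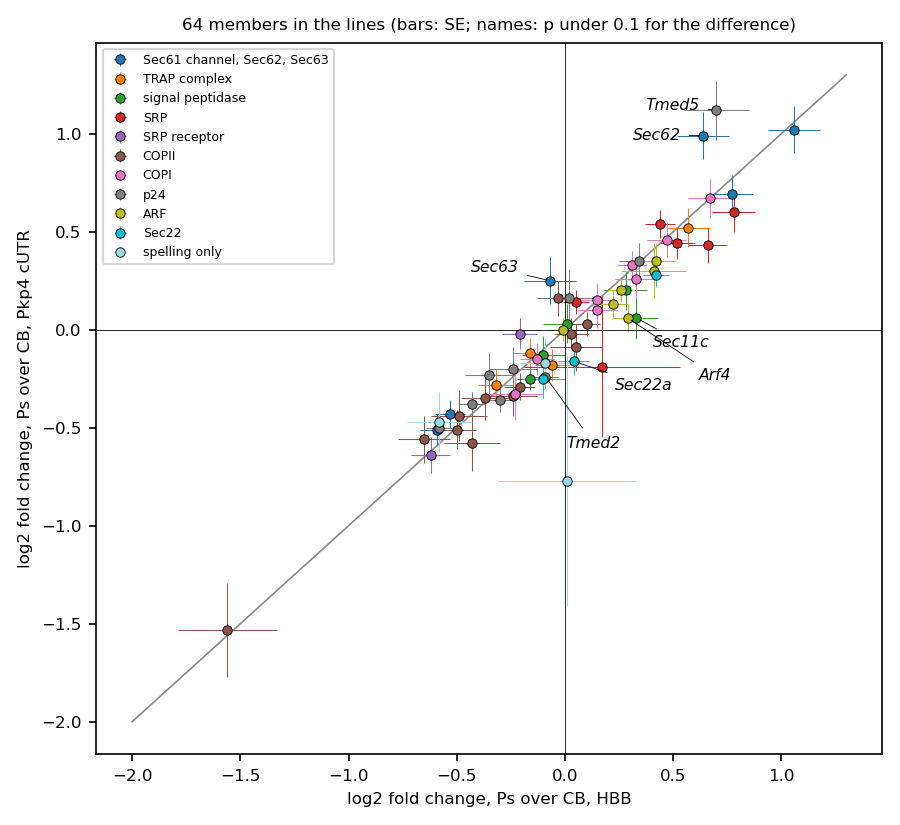
Protrusion over cell body log2 fold change of the 64 members, with HBB on the x axis and Pkp4 cUTR on the y axis, coloured by role, with bars for SE. The grey line marks equal values, and the 7 members named have an unadjusted p under 0.1 for log2(Diff FC). Most points lie along the line, with Sec62 and Tmed5 above it and Arf4 and Sec11c below it.

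The last comparison was of levels between the lines within a fraction. In cell bodies 2 members were lower in Pkp4 cUTR than in HBB cells (background 5.55%) and none was higher (background 3.42%). In protrusions 3 were lower (background 4.26%) and none higher (background 2.89%). At an unadjusted p under 0.05, 9 members (14.1%) passed in cell bodies and 14 (21.9%) in protrusions, beside 22.9% and 22% of all RNAs. Samples that carry the same number in both lines varied together, and with the replicate number as a block Spcs3 was also higher in Pkp4 cUTR cells in each fraction, so that 1 member in place of 0 was higher.

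Sec14l2, which matched by spelling, was lower by the widest margin, on few reads. It had 42, 33, 58 and 25 reads in HBB cell bodies and 28, 27, 24 and 31 in HBB protrusions, but 10, 6, 5 and 7 in Pkp4 cUTR cell bodies and 0, 3, 11 and 5 in Pkp4 cUTR protrusions. The log2 difference was −2.34 (95% interval −3.28 to −1.41) in cell bodies and −3.12 (−4.30 to −1.94) in protrusions. It was above 0.5 log2 CPM, the stated cutoff for listing, in HBB samples only, and whether it is listed for that reason cannot be told, since other RNAs of the table are under that cutoff in every sample.

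Arf2 was the one member of the machinery that was lower in both fractions. It had 5.80, 5.75, 5.84 and 5.79 log2 CPM in HBB cell bodies and 5.58, 5.37, 5.57 and 5.53 in Pkp4 cUTR cell bodies. In protrusions it had 6.09, 5.92, 5.89 and 6.15 in HBB and 5.59, 5.61, 5.70 and 5.65 in Pkp4 cUTR cells. The lines did not overlap, and the log2 difference was −0.28 (limma adjusted p = 0.0142) and −0.37 (limma adjusted p = 0.0029). In cell bodies the call was lost without the third HBB or the second Pkp4 cUTR cell-body sample, at limma adjusted p = 0.0514 and 0.0522.

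Sec11c was lower in Pkp4 cUTR protrusions, with 3.52, 3.29, 3.66 and 3.31 log2 CPM against 3.86, 3.86, 4.08 and 3.78 in HBB protrusions. The log2 difference was −0.44 (limma adjusted p = 0.014), and without the second Pkp4 cUTR protrusion sample it was −0.40 with a limma adjusted p of 0.0533. In cell bodies it had 3.52, 3.53, 3.70 and 3.50 in HBB and 3.49, 3.20, 3.34 and 3.55 in Pkp4 cUTR cells, which overlapped.

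**Figure D5:**
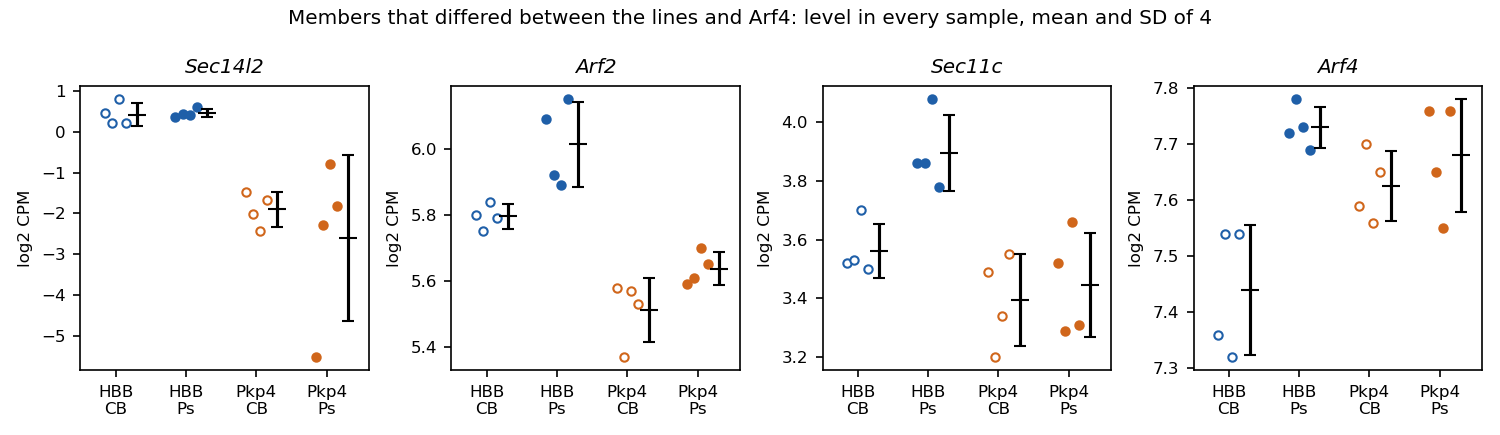
Log2 CPM (y axis) of Sec14l2, Arf2, Sec11c and Arf4 in each sample of the 4 groups (x axis, open points for cell bodies and filled points for protrusions), with the mean and SD of 4 samples. Sec14l2 and Arf2 are lower in Pkp4 cUTR than in HBB cells in both fractions, Sec11c is lower in protrusions, and the Arf4 fractions are apart in HBB cells only.

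Genes of the same route outside the naming were read in 77 of 80 cases. In HBB cells 16 were higher and 42 lower in protrusions, with a median log2(FC) of −0.24, and in Pkp4 cUTR cells 15 were higher and 40 lower. Over all RNAs of the table, 28.3% were higher and 28.9% lower in HBB cells, and 28.2% and 28.5% in Pkp4 cUTR cells. The oligosaccharyltransferase, which glycosylates chains as they enter the ER, was split like the channel. Its small subunits Ost4 (0.80 ± 0.09), Krtcap2 (0.73 ± 0.11) and Tmem258 (0.57 ± 0.09) were higher and its large subunit Rpn2 (−0.68 ± 0.06) was lower, and of 14 RNAs of the complex and of the TRAM proteins 5 were higher and 7 lower. In the membrane insertion lists, Emc2 had the highest value at 1.50 ± 0.13 and Emc1 of the same complex the lowest at −1.11 ± 0.08.

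Of 28 coat regulators and traffic proteins 8 were higher and 15 lower, and Arcn1, the δ subunit of COPI, was among the higher with 0.39 ± 0.08. This name was added because it completes the coat. The ER chaperones and stress sensors were mostly lower, with 1 of 22 higher (Canx) and 14 lower and a median of −0.38. The background in HBB cells was 28.3% higher and 28.9% lower over all RNAs, for these and for the coat regulators. Pdia4, a disulfide isomerase, had −1.08 ± 0.10 and Herpud1, of ER-associated degradation, had −0.75 ± 0.07.

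Reads of some members may be shared with other genes. By alignment of transcripts at 98% identity or more over at least 100 bases, 21 members share a stretch with another gene, and for 9 it covers over 20% of the transcript. Srp54b is covered wholly (100%) by its copies, and Sec61b to 84.0% by the pseudogene Gm10320. Sec61g shares 22.6% with pseudogene copies, Sec61a2 37.1% with the neighbouring Nudt5, Tmed10 44.5% with a pseudogene and Copg2 23.0% with Mest. How such reads were assigned is not stated, so the values of these members are uncertain to that extent.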

How the data were processed

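RNA of protrusions and cell bodies was sequenced from 16 samples of NIH/3T3 lines, 4 per group, with groups taken from the sample titles. Total RNA was the starting material. The paper calls the libraries total RNA libraries but names the TruSeq Stranded mRNA kit for making them. The authors aligned reads to mm10 with STAR 2.4.2a and a GENCODE annotation, counted them per gene with Rsubread and normalized them with limma-voom (limma 3.26.1), and deposited log2 CPM for 12900 RNAs. The study states a cutoff of 0.5 log2 CPM in at least 1 sample, but 1418 deposited RNAs are at or below it in all 16. The method of library scaling and the strand setting of the counting are not given in the sources used here.

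From the deposited log2 CPM the reads were recovered (100% within 0.01 of a whole number) and used with the authors' scaled library sizes, whose factors over total reads were 0.83 to 0.974 in protrusions and 1.072 to 1.11 in cell bodies. Testing was by limma-voom (limma 3.58.1, R 4.3.3) over all 12900 RNAs, with one mean per group, all 16 samples in one fit, two-sided tests and Benjamini-Hochberg adjustment. The errors after ± on a log2(FC) are standard errors of that fit. The script was tested on simulated reads.

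Members were found by symbol, and the members, role lists and tests were chosen with earlier results of these data known. Values in every sample are given for up to 8 members per direction of Ps/CB with the largest mean log2(FC) of the lines among those called alike in both, for 4 with the smallest p of log2(Diff FC), and for those called between the lines. Sec61a1 was added after its values were seen, as the counterpart of the other Sec61 subunits. Genes outside the naming were named by the smallest p of the HBB Ps/CB comparison, up to 4 per direction, and a few more were added where the text says why or for scale. Coordinates and lengths come from GENCODE vM21 (GRCm38, the build of mm10), in which 12766 of 12900 RNAs (99.0%) matched, promoters from RefSeq, and transcripts were aligned with BLAST 2.17.0.

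Samples with the same number in both lines varied together (correlation of deviations from group means over 10154 RNAs 0.331 to 0.628 for cell bodies and 0.196 to 0.392 for protrusions), so the numbers in the sample titles pair the lines. Between fractions of a line they did not do so in every pair (0.0455 to 0.389 in HBB and −0.362 to 0.00248 in Pkp4 cUTR). Alternatives were limma-trend on the deposited values, scaling to total reads, a filter at a mean log2 CPM above 0.5, log2(CPM + 1), quantile normalization, the replicate block and leaving out each of 16 samples. The replicate block was set within each line for Ps/CB and log2(Diff FC), and across the lines for levels between them. A block shared by the lines was also fitted for Ps/CB and log2(Diff FC).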

Additional observations from a re-analysis of the deposited data

Results flagged for a closer look

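In 88 groups of 4 samples, from the 22 members whose samples are given, 2 samples stood far from the other 3 by Dixon's criterion, fewer than the 1 in 20 that chance flags. Sec24b in the fourth HBB protrusion sample was at 3.97 log2 CPM with the others at 4.11 to 4.12, and Sec61b in the fourth HBB cell-body sample was at 6.81 with the others at 6.72 to 6.73. The group ranges stayed apart from the other fraction in both cases.

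Protrusion enrichment differed between the lines at an unadjusted p under 0.1 (limma) for 7 members, and none passed the adjustment over all RNAs. By limma, the log2(Diff FC) was −0.23 for Arf4, −0.20 for Sec22a, 0.43 for Tmed5, 0.34 for Sec62, −0.27 for Sec11c, 0.32 for Sec63 and −0.16 for Tmed2, and the adjusted p was 1 for each.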

How the results depend on the processing

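Of 1025 values of the members whose samples are given, under the alternatives, 1005 kept their direction and their side of the threshold, 20 kept the direction but no longer passed, and none reversed. Many of these refits left out a sample of a group outside the comparison, which leaves its estimate nearly unchanged. The members were also picked by their values in these data, so the count is no independent check. Outside that count, scaling to total reads changed the sign of log2(FC) of Arf2 in HBB and of Arf1, Copg2 and Srp68 in Pkp4 cUTR cells. Scaling to total reads changed the members higher and lower in protrusions to 12 and 32 in HBB and 10 and 34 in Pkp4 cUTR cells, from 22 and 18 and from 18 and 21, and left 0 above 2-fold in either line. The shares of all RNAs called under that scaling were not counted. With log2(CPM + 1), 1 was above 2-fold in Pkp4 cUTR cells. Quantile normalization gave 1 member higher in Pkp4 cUTR cell bodies (Arf6) and 2 in protrusions (Arf6 and Srp68), and a mean log2 CPM above 0.5, which removes Sec14l2, left 1 lower in cell bodies. The replicate block gave 1 member higher in Pkp4 cUTR cells in each fraction (Spcs3) and otherwise moved no count by over 1.5 times. With a block shared by the lines, 22 members were higher and 20 lower in HBB protrusions, and 18 and 23 in Pkp4 cUTR protrusions. For log2(Diff FC), 8 members then passed the unadjusted threshold. The shares of all RNAs in that fit were not counted. With a sample left out, the members passing for log2(Diff FC) ranged from 3 to 9, those above 2-fold in HBB cells from 0 to 1 and in Pkp4 cUTR cells from 1 to 3, those lower in Pkp4 cUTR cell bodies from 1 to 2, and those higher in Pkp4 cUTR cell bodies and protrusions from 0 to 1 each. Without Pkp4 cUTR cell-body sample 3 Spcs3 was higher in those cell bodies, and without protrusion sample 1 Tmed5 was higher in those protrusions. The cause was not tested. Sec14l2 and Srp54b, at under 60 reads, are limited by depth.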
